A study of Mus musculus with 2 samples.

Results

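Klf4 occupancy was examined at 7 genes whose products damp signalling and growth: the MAP kinase phosphatases Dusp1, Dusp5 and Dusp6, the antiproliferative genes Btg1 and Btg2, and the mRNA decay factors Zfp36 and Zfp36l1. Peaks were chosen by position, as those whose midpoint fell in a fixed window of 30 or 40 kb of the mouse genome build mm9 given for each gene. This gave 10 of the 7313 peaks of the list. The genes were selected on scores of this same list, and the rule itself names Btg1 and Dusp6 as holding 2 of the 10 highest scores, so numbers, widths, scores and ranks of peaks are given as descriptions with no test.

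The peaks come from chromatin immunoprecipitation with sequencing (ChIP-seq) of mesenteric arcades, the small vessels of the gut mesentery, from C57BL/6 mice on chow diet. The series holds 1 library of genotype eYFP+/+ Klf4WT/WT and 1 of genotype eYFP+/+ Klf4delta/delta, with the SMC (smooth muscle cell) deletion of the gene. Mice of both genotypes carry the SMC eYFP label. The promoter behind the deletion and the number, pooling and age of the animals were not stated in the labels. The chromatin came from the stromal vascular fraction, which the labels call a mix that includes macrophages and epithelial cells beside SMC, so no peak is tied to a cell type, and the mixture was not checked against marker genes. The single list names no genotype, so intact and deleted Klf4 were not compared, there is no replicate error on any value, and whether a peak depends on Klf4 was not tested. The depth of the libraries was not stated.

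Klf4 is a zinc-finger transcription factor of the Krüppel-like family, which binds GC-rich and CACCC-type sequences and takes part in the change of SMC phenotype. Several of the 7 genes are textbook examples of delayed negative feedback, in which stimuli that activate MAP kinases also induce their transcription. Dusp1, Dusp5 and Dusp6 proteins remove phosphate from MAP kinases, Btg1 and Btg2 proteins bind the CCR4-NOT deadenylase that shortens mRNA tails, and Zfp36 (tristetraprolin) and Zfp36l1 proteins bring the same deadenylase to AU-rich mRNAs such as those of cytokines.

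The promoters of 4 of the genes are shown, picked for their contrast with the peaks described below, so they do not represent the group. Btg1 and Dusp6 hold the highest-scoring peaks of the group, Dusp1 has 1 peak with a lower score, and Dusp5 has none. Each sequence is the 250 bases before the RefSeq start site in GRCm38.p6, read 5′ to 3′ on the gene's own strand. Capitals mark matches, on either strand, to 2 KLF-type motifs: CACCC, which reads GGGTG from the opposite strand, and the longer GGGNGNGGC. The coordinates are in GRCm38.p6 and cannot be set beside the mm9 coordinates of the peaks, so whether a peak covers a promoter was not tested. Btg1 lies on the plus strand at chr10:96616751-96617000, Dusp6 on the plus strand at chr10:99262981-99263230, Dusp1 on the minus strand at chr17:26508473-26508722 and Dusp5 on the plus strand at chr19:53528895-53529144.
Btg1: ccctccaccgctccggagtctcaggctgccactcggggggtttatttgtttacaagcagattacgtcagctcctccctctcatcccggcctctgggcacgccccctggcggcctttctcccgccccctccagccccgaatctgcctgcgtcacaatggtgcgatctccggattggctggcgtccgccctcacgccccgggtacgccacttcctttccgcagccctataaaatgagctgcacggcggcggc
Dusp6: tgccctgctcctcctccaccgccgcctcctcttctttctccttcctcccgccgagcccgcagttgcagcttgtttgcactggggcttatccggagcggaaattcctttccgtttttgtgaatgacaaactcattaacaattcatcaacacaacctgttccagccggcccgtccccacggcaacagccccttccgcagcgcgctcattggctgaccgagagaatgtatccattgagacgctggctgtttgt
Dusp1: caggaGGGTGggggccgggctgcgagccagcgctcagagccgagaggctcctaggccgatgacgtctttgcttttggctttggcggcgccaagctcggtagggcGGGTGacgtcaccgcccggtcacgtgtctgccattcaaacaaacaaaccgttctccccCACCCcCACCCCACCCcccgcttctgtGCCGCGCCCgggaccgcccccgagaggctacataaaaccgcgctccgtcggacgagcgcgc
Dusp5: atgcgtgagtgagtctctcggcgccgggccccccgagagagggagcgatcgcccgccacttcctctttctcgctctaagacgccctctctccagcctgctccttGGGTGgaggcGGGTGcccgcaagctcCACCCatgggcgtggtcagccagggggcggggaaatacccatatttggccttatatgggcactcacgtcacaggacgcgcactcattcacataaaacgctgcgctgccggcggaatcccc
The Btg1 and Dusp6 sequences have no capitals, while those of Dusp1 and Dusp5 have several. Btg2, Zfp36 and Zfp36l1, not shown, have both peaks and matches to these motifs, and the highest Zfp36l1 peak scored 487.82.

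Klf4 peaks were found in the windows of 6 of the 7 genes. Dusp1, Dusp6, Btg1 and Btg2 had 1 peak each, Zfp36 and Zfp36l1 had 3 each, and Dusp5 had none. For scale, 7.22% of all 30 kb bins and 9.32% of all 40 kb bins over the spans of the chromosomes held at least 1 peak midpoint. At least 3 midpoints were held by 0.154% of 30 kb bins and 0.284% of 40 kb bins. The bins include stretches without genes, and the loci were picked with the list in view, so the counts are not read against these shares.

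**Figure D1:**
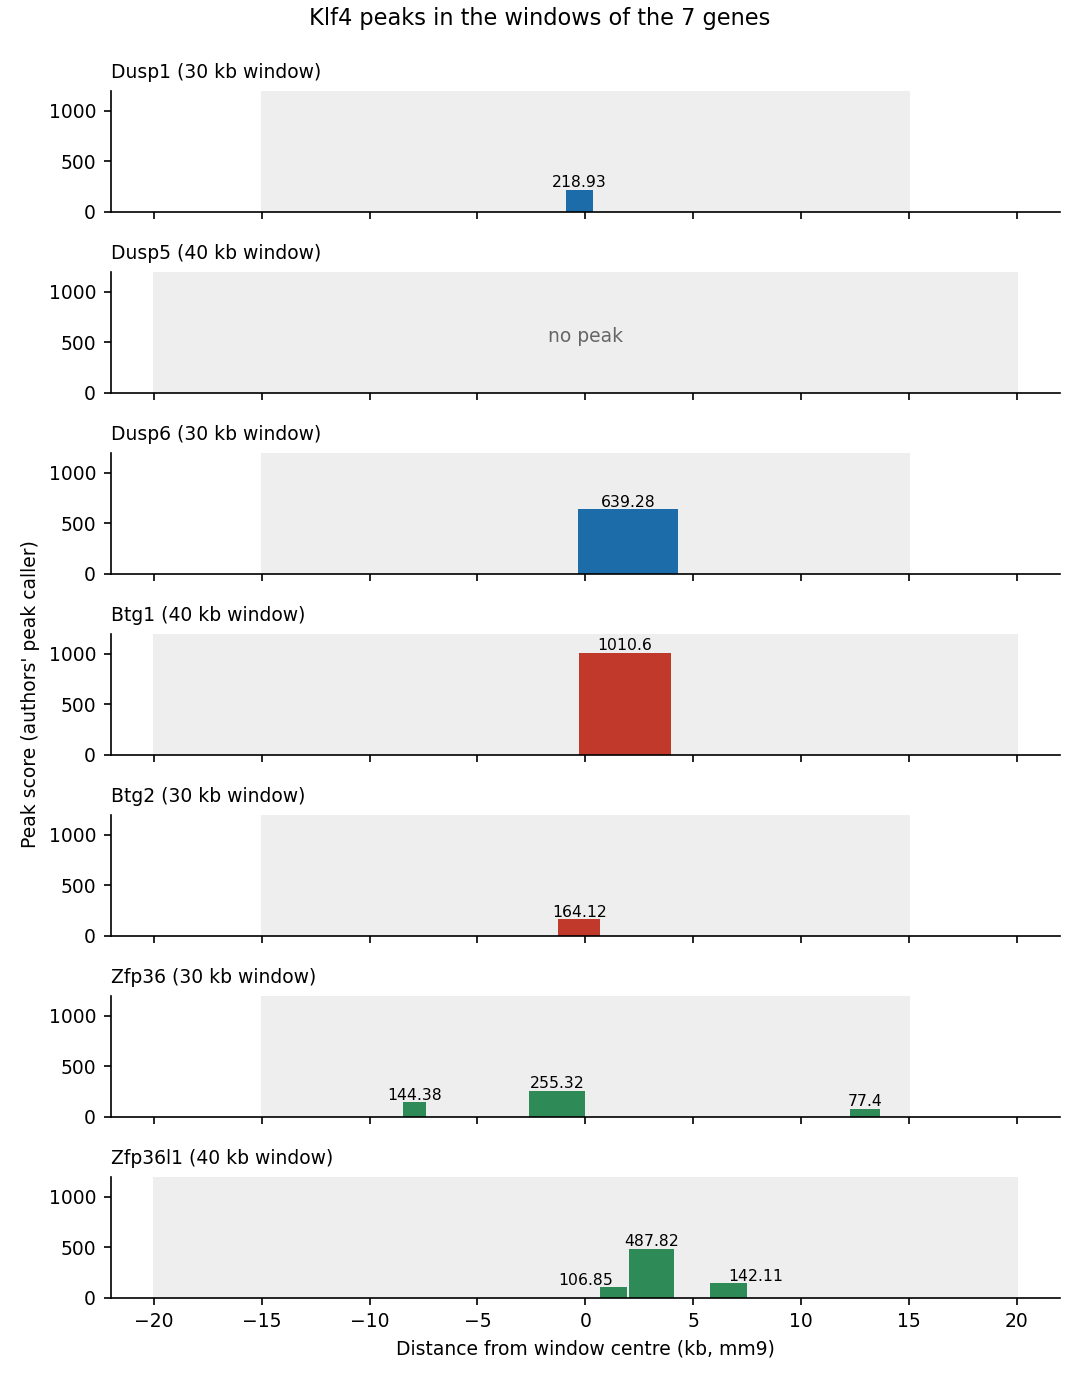
Klf4 peaks in the mm9 window (grey) of each gene, drawn at their distance from the window centre in kb, with bar width to scale and bar height giving the authors' peak score. Btg1 (1010.6) and Dusp6 (639.28) carry single wide peaks, Zfp36 and Zfp36l1 carry 3 peaks each, and the Dusp5 window is empty.

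The score of a peak is the value given by the authors' peak caller. A ratio of scores, or a score per kb, is not read as a fold difference in binding. Over the list the score had a lowest value of 60.01, a median of 112.02 and an upper quartile of 161.17. Of the 10 peaks, 8 scored above that median and 6 above that quartile. The median over the 10 was 191.525, and their lowest score was 77.4, near the lowest of the list. Over the whole list 5% of peaks scored above 275.6, and 3 of the 10 did so, at Btg1, Dusp6 and Zfp36l1. The rule names Btg1 and Dusp6 for their high scores, so the 3 of 10 is not read against the 5%. All 10 were wider than the list's median width of 913 bp, and 9 were wider than its upper quartile of 1203 bp. The exception in width was a 1078 bp peak in the Zfp36 window.

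Among the phosphatase genes the 3 loci gave 3 different pictures. Dusp6 encodes the cytoplasmic phosphatase of ERK. Its peak lay at chr10:98724646-98729314, scored 639.28 and ranked 9 by score. At 4669 bp it was the widest of all 7313 peaks. Only 5 peaks of the list reached 4 kb, and 2 of these were the Dusp6 and Btg1 peaks.

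Dusp1 encodes a nuclear phosphatase of the stress-activated MAP kinases and of ERK. It had a 1242 bp peak at chr17:26644122-26645363, with a score of 218.93 and rank 806, and 88.8% of peaks scored lower. The Dusp6 score was 2.92 times that of Dusp1. With no replicate, this ratio carries no error.

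Dusp5, whose product acts on ERK in the nucleus, had no peak in its 40 kb window, at 53.59 to 53.63 Mb of chromosome 19. The nearest peak after the window, at chr19:53674639-53676097, had its midpoint 45.4 kb outside and scored 192.46. The nearest before it, at chr19:53464171-53465111, lay 125.4 kb outside and scored 218.93. Both would stay outside a window widened by 20 kb on each side. The list holds no score below 60.01, so weaker signal would not appear in it. With the read depth unknown, an empty window does not show that Klf4 was absent there.

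The 2 BTG genes each had a single peak, with very different scores. Btg1 carried a peak of 4258 bp at chr10:96079721-96083978, which scored 1010.6. It ranked 2 by score and 2 by width in the list, and it was the highest of the 341 peaks on chromosome 10. Btg2, a p53-inducible paralogue of Btg1, carried a peak of 1951 bp at chr1:135973758-135975708. It scored 164.12 and ranked 1735, with 76.3% of peaks lower, so the Btg1 score was 6.16 times the Btg2 score. By width the Btg2 peak stood higher, at rank 228, with 96.9% of peaks narrower.

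The 2 decay factor genes had 3 peaks each, with different spacing. At Zfp36l1 the peaks covered 5045 bp of a span of 6800 bp. The middle one, at chr12:81212012-81214122, scored 487.82 (rank 40) over 2111 bp. It was flanked by a peak of 106.85 at chr12:81210693-81211927, only 84 bp away, and by one of 142.11 at chr12:81215794-81217492, 1671 bp away. The highest score was 3.43 times the next. Joining peaks under 1 kb apart turns the 3 peaks into 2 regions, so the first 2 may be read as 1 stretch. Separate binding sites and a divided region cannot be told apart from the list.

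At Zfp36 the peaks were spread over 22109 bp. The highest, at chr7:29162415-29164984, scored 255.32 (rank 489) over 2570 bp, and only 43 peaks of the list were wider. The peak before it, at chr7:29156556-29157633, scored 144.38 and lay 4781 bp away. The peak after it, at chr7:29177257-29178664, scored 77.4 and lay 12272 bp away, with 19.8% of the list lower. The last had its midpoint 2.04 kb inside the window's edge, and it drops out when the window is narrowed by 5 kb on each side. The nearest peak left out, at chr7:29135690-29136565 with a score of 73.59, lay 13.9 kb before the window. In the RefSeq gene order of GRCm38.p6, Zfp36 sits between the coding genes Plekhg2 and Med29. Whether the outer peaks belong to Zfp36 or to such a neighbour was not tested, since an mm9 annotation was not used here.

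**Figure D2:**
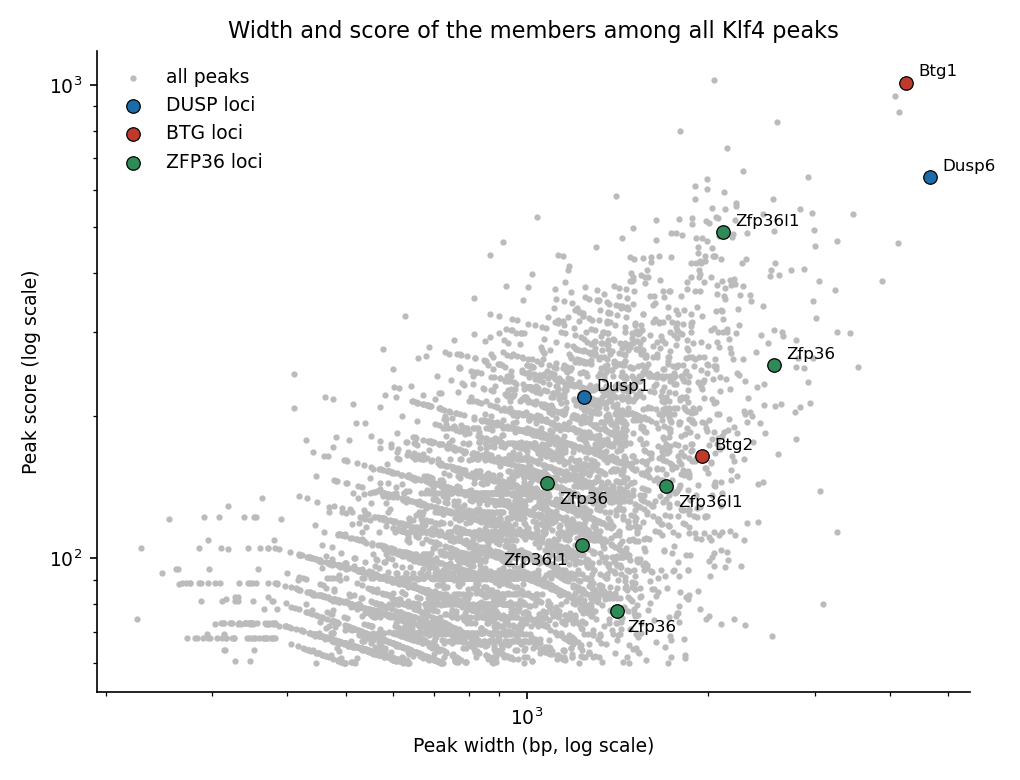
Width (bp) and score of all 7313 Klf4 peaks (grey) and of the 10 peaks at the 6 loci (coloured by gene family), both axes on a log scale. Btg1 and Dusp6 lie at the upper right edge of the cloud, and all 10 coloured points lie to the right of the median width of 913 bp.

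Wider peaks tend to score higher across the list (Spearman's rho = 0.55 over 7313 peaks, which share libraries and are not replicates), so each locus was also ranked by other measures. Btg1 stood high by each one: 99.7% of peaks in its own width decile scored lower, and 93.3% of all peaks had a lower score per kb. Zfp36l1 held similar places, with 94.9% of its width decile and 92.3% by score per kb. Dusp6 was above 98.8% of its width decile but above only 56.4% of peaks by score per kb, at 136.9 per kb against a median of 129.0. For Dusp1 the values were 84.7% and 78.1%. The width decile of Btg1 and Dusp6 also holds a peak of 1699 bp, and only 5 peaks of the list reached 4 kb. Their rank in that decile sets them mostly beside narrower peaks, so it does not take width out of their scores.

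The highest Zfp36 and the Btg2 peaks stood lower by these measures than by score alone. The Zfp36 peak stood above 67.3% of its width decile and above 24.4% of peaks by score per kb. For Btg2 the values were 35.2% and 13.6%. Over all 10 peaks, 5 exceeded the median score per kb, and none was among the 10 highest by that measure, whereas 2 were among the 10 highest by score and 2 among the 10 widest.

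**Figure D3:**
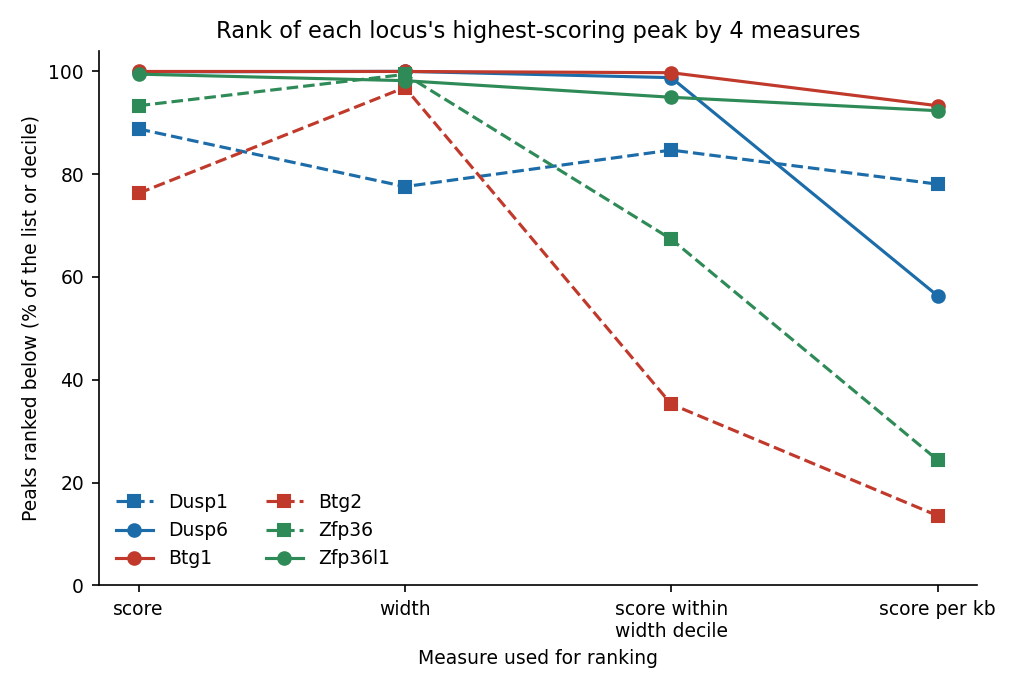
Percent of peaks ranked below the highest-scoring peak of each of the 6 loci, by score, by width, by score within its own width decile, and by score per kb. Btg1 and Zfp36l1 stay above 92% throughout, while Btg2 (13.6%) and Zfp36 (24.4%) fall low by score per kb.

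The loci differed in how many other peaks surrounded them. A peak of the list had a median of 6 others within 500 kb of its midpoint, with quartiles of 3 and 10. The Btg1 peak had none, with the nearest peak 675.6 kb before it and the next 2293 kb after it. The Dusp6 peak had 2, both before it, and the next peak after it was 749.1 kb away. Btg1 and Dusp6 both lie on chromosome 10, with a sparse stretch between their peaks. Over the 2641 kb between the Btg1 and Dusp6 peaks the list holds 2 others, with scores of 208.71 and 86.17. The nearest peak with a higher score than Dusp6 was that of Btg1 itself, 2.65 Mb away.

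At the other end, the highest Zfp36 peak had 14 others within 500 kb, its 2 companions in the window included, and 86.3% of peaks had fewer. It was still the highest in that stretch, since the nearest higher peak was 3128 kb away. The Dusp1 peak had 8 others, Btg2 had 6 and the middle Zfp36l1 peak had 6. Dusp1 was the only one of the 6 loci with a higher peak within 500 kb, a peak of 300.31 at chr17:26389643-26390893. For Btg2 the nearest higher peak was 945.3 kb away and for Zfp36l1 833.8 kb, against a median of 113.6 kb over the list. The higher a peak scores, the fewer peaks can exceed it, and the loci were chosen on scores. Distances to a higher peak, those of Dusp6 and Zfp36 included, are therefore not read as a trait of the loci.

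**Figure D4:**
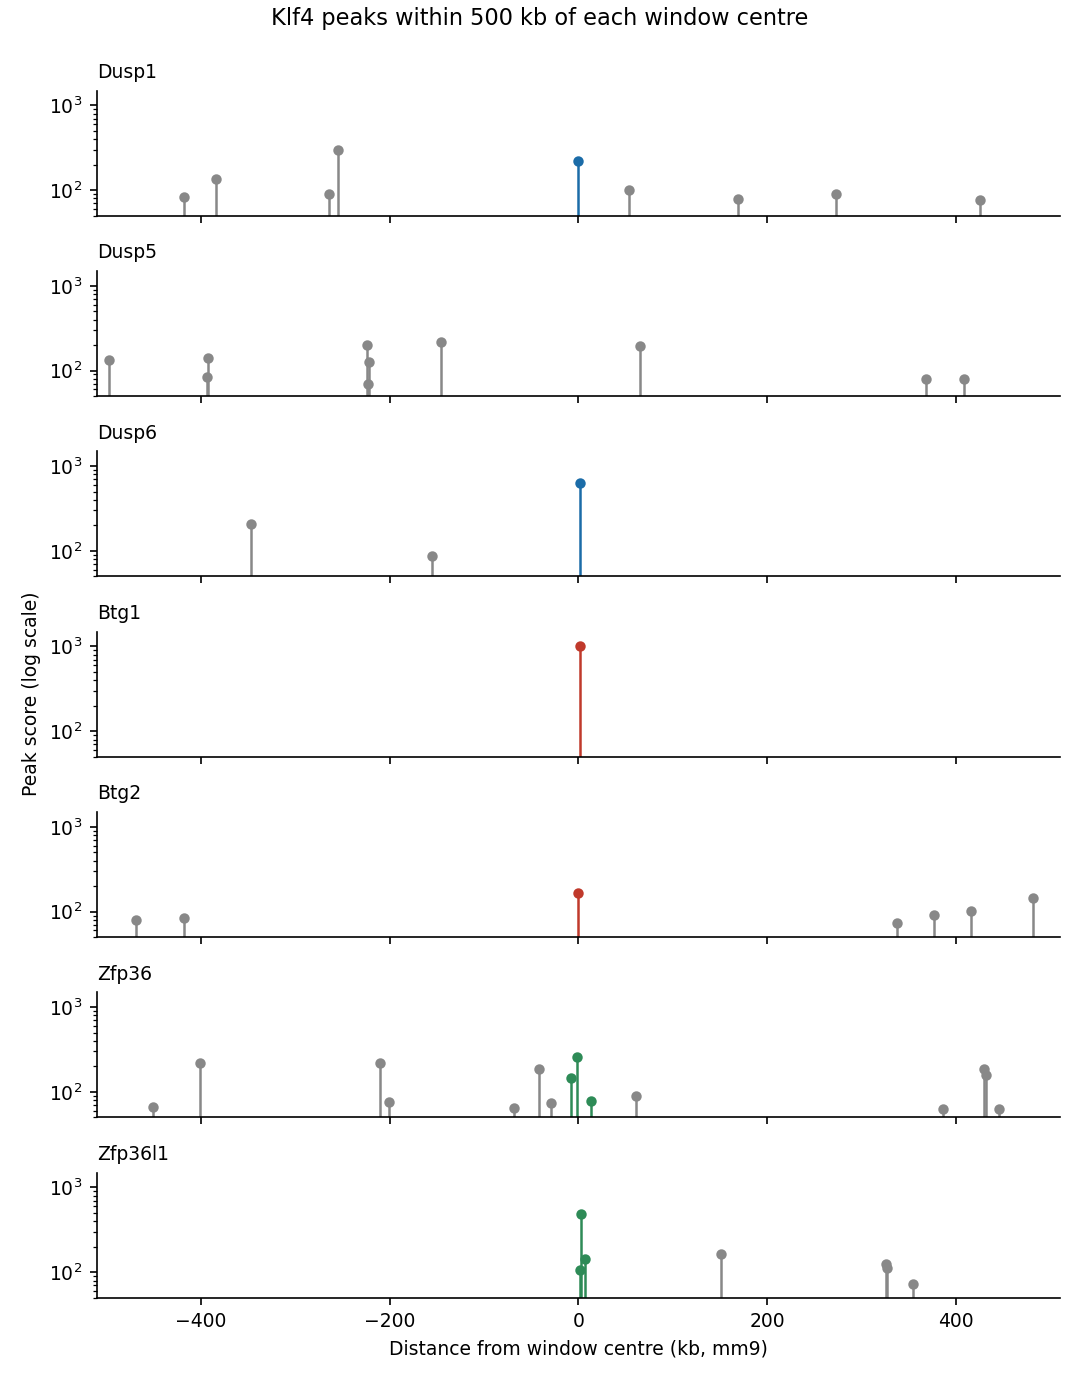
Score (log scale) of every Klf4 peak within 500 kb of the centre of each gene's window, with peaks of the window in colour and others in grey, against distance in kb. The Btg1 peak stands alone, Dusp6 has 2 lower neighbours, and Zfp36 lies among 12 peaks outside its window.

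The promoters of 5 of the 7 genes held a KLF-type match, beside 59.9% of all promoters. Btg1 and Dusp6, with the highest-scoring peaks, held none, and Dusp5, without a peak, held 3. Zfp36l1, with the next highest peak at 487.82, held 1. A relation between peaks and matches was not tested. The 7 genes all had a promoter in the RefSeq table, which holds 32851 promoters of 27025 genes. In the 250 bases before the start site, CACCC was present in 52.0% of all promoters and GGGNGNGGC in 23.3%, and 59.9% held either. Of the 7 genes, 5 held either motif and 2, Btg1 and Dusp6, held neither. Only these 2 exact strings were counted as KLF-type, and other GC-rich sequences, which the Btg1 promoter also holds, were not searched. No GGGNGNGGC match in these genes contained a CACCC match. With the 50 bases after the start site included, Dusp6 gained 1 CACCC match and Btg1 none. A match is only a run of letters, and its absence from so short a stretch says nothing on binding elsewhere in peaks of over 4 kb.

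Dusp1 had the most CACCC matches, 5, a number reached by 0.667% of promoters, and 3 of them lay between 88 and 73 bases before the start site. It also held 1 GGGNGNGGC match. Dusp5, the gene without a peak, had 3 CACCC matches, as did or exceeded 6.92% of promoters. Zfp36l1 had 1 CACCC match, 53 to 49 bases before the start site. Btg2 had 2 GGGNGNGGC matches (GGGCGGGGC and GGGAGAGGC), and Zfp36 had 1 (GCCACGCCC). GC content ran from 48.4% at Zfp36l1 to 73.2% at Btg2, and 6 of the 7 lay above the median of 52.4%. Whether GC content bears on the counts of matches was not tested.

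Motifs of factors that classically induce immediate early genes were searched in the same bases. TGACG, the core of the cyclic AMP response element, was present in 17.8% of all promoters and at 4 of the 7 genes. Dusp1 had 3 such matches, Btg1 and Btg2 had 2 each and Dusp5 had 1. Matches were counted on each strand. At Btg2 the 2 matches overlap on opposite strands, at 166 to 162 and 163 to 159 bases before the start site. They form 1 stretch, TGACGTCA. At Dusp1, 2 of the 3 overlap in the same way, at 143 to 139 and 140 to 136 bases. The 2 at Btg1 lie apart. The CArG box, the site of serum response factor, was present in 1.47% of all promoters and at 2 of the 7, Dusp5 and Zfp36. Dusp5 held a pair of adjacent CArG boxes, CCATATTTGG at 82 to 73 and CCTTATATGG at 72 to 63 bases before the start site, and only 6 of the 32851 promoters held at least 2. Zfp36 held CCATAAAAGG at 58 to 49 bases before its start site. Dusp6 held none of the 4 motifs in its 250 bases.

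**Figure D5:**
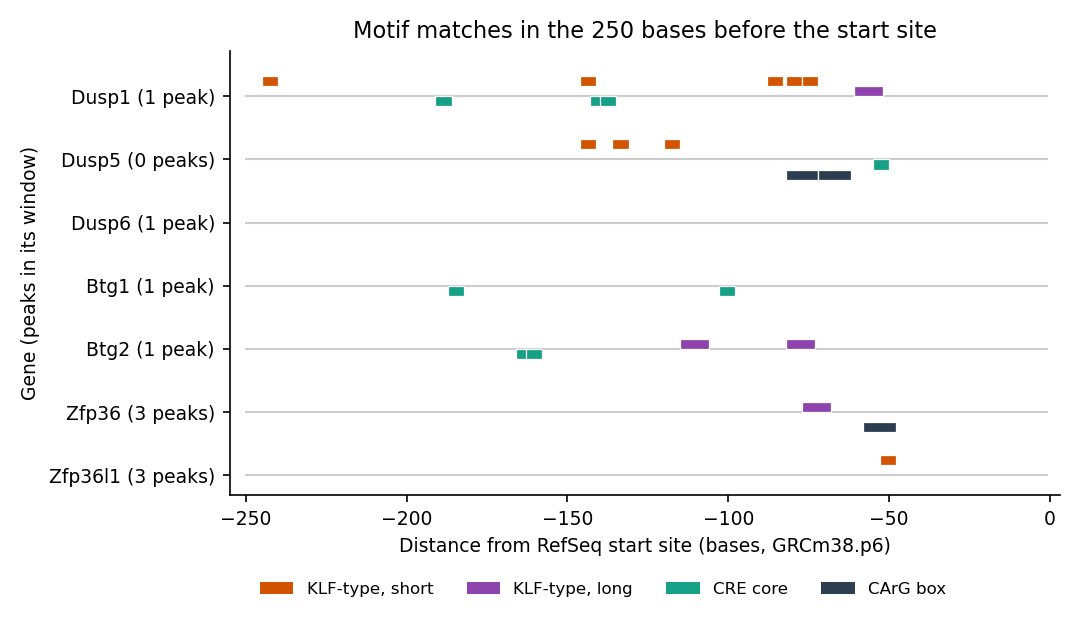
Motif matches in the 250 bases before the RefSeq start site of each gene, by distance in bases, with the number of Klf4 peaks in the gene's window beside its name. KLF-type matches (short is the 5-base motif, long the 9-base one) are drawn at 5 genes, including Dusp5 with no peak, and at neither Btg1 nor Dusp6.

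Other genes of the same pathways could be examined only for promoter sequence, because their mm9 positions were not used here. Of 29 listed genes (other MAP kinase phosphatases, Sprouty and Spred inhibitors of ERK signalling, other BTG and TOB genes, Zfp36 relatives, deadenylase subunits and MAP kinases), 21 had a promoter in the table, 29 promoters in all. CACCC was present in 19 of these 29 promoters (65.5%, against 52.0% of all promoters) and GGGNGNGGC in 11 (37.9%, against 23.3%). TGACG was present in 8 (27.6%, against 17.8%) and the CArG box in none. GGGNGNGGC was held by 5 of 5 promoters of the other MAP kinase phosphatases, 1 of 5 of the ERK inhibitors, 2 of 5 of the BTG and TOB genes, 0 of 1 of the Zfp36 relatives, 1 of 8 of the deadenylase subunits and 2 of 5 of the MAP kinases. CACCC was held, in the same order, by 4 of 5, 2 of 5, 5 of 5, 1 of 1, 4 of 8 and 3 of 5. These counts are of promoters, and a gene with several promoters is counted for each. The 8 deadenylase promoters belong to 3 genes, the 5 MAP kinase promoters to 3 genes and the 5 BTG and TOB promoters to 4 genes. Promoters of 1 gene are not independent, which also holds for the shares of the 29. Differences between these small lists were not tested.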

How the data were processed

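The data were 1 list of Klf4 ChIP-seq peaks for the whole series, with a start, an end and a score per peak. Peaks were called with MACS, per the peak names in the deposited file, and the score is the deposited value of the authors' caller. The submitters' processing notes name Bowtie, SAMtools and mm9, while versions, threshold, control library and depth were not stated. Coordinates are 1-based. A peak belonged to a gene if its midpoint lay in that gene's mm9 window; the windows were taken as given and not checked against an mm9 annotation. Ranks run over all 7313 peaks, with ties sharing the better rank. Neighbour counts and bins used the 7298 peaks placed on a chromosome. Motifs were searched on both strands, overlapping matches counted, in RefSeq promoters of GRCm38.p6. All 7 genes were named. The members, windows, motifs and lists were chosen with earlier results of these data known. The comparison of member proteins was not run. Scripts were tested on planted peaks and motifs. Computation used pandas 2.3.3, numpy 2.4.6 and scipy 1.17.1 under Python 3.11.15, and matplotlib 3.10.9 drew the plots.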

Additional observations from a re-analysis of the deposited data

How the results depend on the processing

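The number of peaks at the 7 loci, 10, fell to 6 in the top 25% of scores and 8 in the top 50%, and it was 9 with peaks under 1 kb apart merged or windows narrowed by 5 kb on each side, 11 with windows widened by 20 kb on each side and 10 when any overlap counted. In each of these settings 6 loci held a peak and Dusp5 held none. The median percentile of the highest peak over the 6 loci, 96.4% by score, was 67.2% by score per kb, and between 89.8% and 98.8% by width, within the chromosome, within the width decile and after merging. The covered length, 22221 bp, was 19578 bp in the top 50% of scores and 22305 bp after merging. Genotypes were not compared, since peaks are tied to no library. No paired analysis was possible because each genotype had 1 library and peaks came as a single list. Depth, threshold and control are unknown, so neither a score ratio nor an empty window measures binding.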

Other observations

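The Dusp1 score, 218.93, was shared to 2 decimals by 15 peaks of the list, among them the nearest peak before the Dusp5 window. The scores of Btg1, Dusp6, Btg2, the highest Zfp36 peak and the highest Zfp36l1 peak were each held by 1 peak only.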
